A study of Mus musculus with 9 samples.

Results

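The mitosis genes are 38 genes whose products carry a cell from the entry into mitosis to the separation of its daughters: cyclins, kinases, the spindle checkpoint, centromere and kinetochore proteins, spindle motors and the cytokinesis machinery. They were picked by gene symbol from a deposited table of 22544 entries in mouse ovary. The rule uses no measured value, but the list was made with earlier results of these data known. All 38 symbols were found, and all 38 were among the 13338 genes with at least 1 FPKM (fragments per kilobase of transcript, relative to all mapped fragments) in at least 3 of the 9 libraries. The libraries fall into 3 groups of 3. The HBOT group had both CTX and hyperbaric oxygen therapy, as the design text of the study gives it. The CTX group had CTX alone. The labels do not spell out CTX, a usual abbreviation of cyclophosphamide, an alkylating drug that damages DNA and is toxic to dividing cells and to follicles. The NC group, also not spelled out, had neither and is taken as the control. The labels used here give no strain, age, dose, timing or cycle stage, and do not say whether libraries of a group came from separate animals. P-values therefore measure only the spread between these libraries, which may be technical in part.

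Entry into mitosis is driven by CDK1 bound to cyclin B, and exit by the anaphase-promoting complex, which marks cyclin B and securin for destruction once every kinetochore is attached to the spindle. Transcripts of these genes accumulate in G2 and M phase. The MuvB complex joined to B-MYB and FOXM1 activates them, and the DREAM complex, which holds MuvB with a p130 or p107 pocket protein, silences them in resting cells. MuvB contacts a short promoter element named CHR (cell cycle genes homology region), and NF-Y binds CCAAT boxes beside it. In the adult ovary the granulosa cells of growing follicles are the main dividing cells, while luteal cells have left the cell cycle and oocytes are held in meiotic prophase. The oocyte also stores transcripts of several of these genes for its own meiotic divisions.

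The promoters are shown because CHR and CCAAT matches were frequent among these genes. RefSeq promoter windows of GRCm38.p6, from 250 bases before to 50 bases after the transcription start, were found for 32 of the 38 genes, in 34 windows. The letters TTTGAA or TTCGAA of the CHR, on either strand, stood in the windows of 26 of the 32 genes (81.2%), against 21.7% of the 27025 genes of the same table. CCAAT, on either strand, stood in 24 of the 32 (75.0%), against 41.1% of all genes, and 17 (53.1%) held at least 2 CCAAT matches, against 13.3%. Both motifs stood in 22 genes (68.8%), against 8.6%. The E2F letters TTTGGCGC, TTTCGCGC or TTTCCCGC stood in 2 genes (6.2%), Cdk1 and Kif15, against 2.1%. A match of letters is a description and not a bound site. Other forms of the CHR were not searched, so a window without these letters is not shown to lack the element. Of 40 CHR matches, counted per window, 27 lay within 50 bases of the start, in 24 genes. The windows of Ect2 overlap each other, as do those of Prc1, so the same letters were counted in each of them. The windows of Ccnb1 and Cenpe held CCAAT but no CHR letters, and those of Birc5, Mad2l1, Melk and Nusap1 held neither. The stretches below run from 130 bases before the start to 20 bases after it on the strand of the gene, with CHR and CCAAT letters in capitals (CCAAT on the other strand reads ATTGG, and TTTGAA reads TTCAAA). The CHR form TTCGAA is its own complement and was counted once per position. Matches shared bases in a pair of members, with 1 base common to a CHR and a CCAAT match in Cdca8 and 2 bases common to CCAAT matches on opposite strands in Ube2c. They belong to the B-type cyclins and their kinase, to Cdc20 and Ube2c, which work with the anaphase-promoting complex, to Top2a, the most abundant of the chromosome genes, and to Aspm and Kif15, the spindle genes with the smallest p-values.
Ccnb1 (chr13:100786467-100786616, minus strand): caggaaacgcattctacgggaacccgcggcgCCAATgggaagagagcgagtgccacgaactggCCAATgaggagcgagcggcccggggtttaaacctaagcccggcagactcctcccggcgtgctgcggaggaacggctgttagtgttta
Ccnb2 (chr9:70421535-70421684, minus strand): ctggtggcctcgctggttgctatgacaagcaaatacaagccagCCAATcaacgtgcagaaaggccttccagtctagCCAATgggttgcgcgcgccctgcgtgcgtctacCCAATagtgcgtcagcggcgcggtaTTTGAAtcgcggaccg
Cdk1 (chr10:69352893-69353042, minus strand): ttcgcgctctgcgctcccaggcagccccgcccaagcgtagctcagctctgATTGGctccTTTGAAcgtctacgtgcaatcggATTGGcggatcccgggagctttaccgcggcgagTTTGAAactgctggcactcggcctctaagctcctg
Cdc20 (chr4:118437324-118437473, minus strand): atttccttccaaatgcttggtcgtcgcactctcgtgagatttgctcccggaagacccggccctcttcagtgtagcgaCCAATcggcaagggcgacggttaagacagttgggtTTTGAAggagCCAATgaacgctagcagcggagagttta
Ube2c (chr2:164769799-164769948, plus strand): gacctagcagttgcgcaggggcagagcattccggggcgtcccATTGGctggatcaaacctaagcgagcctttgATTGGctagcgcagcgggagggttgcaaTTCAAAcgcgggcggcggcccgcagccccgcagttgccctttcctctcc
Top2a (chr11:99024170-99024319, minus strand): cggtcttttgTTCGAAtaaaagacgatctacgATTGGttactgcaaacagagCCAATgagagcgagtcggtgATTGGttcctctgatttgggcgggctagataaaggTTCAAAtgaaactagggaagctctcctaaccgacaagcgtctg
Aspm (chr1:139454643-139454792, plus strand): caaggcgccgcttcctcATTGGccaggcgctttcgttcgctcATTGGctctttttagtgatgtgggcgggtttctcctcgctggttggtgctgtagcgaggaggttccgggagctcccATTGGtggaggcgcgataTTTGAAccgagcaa
Kif15 (chr9:122950951-122951100, plus strand): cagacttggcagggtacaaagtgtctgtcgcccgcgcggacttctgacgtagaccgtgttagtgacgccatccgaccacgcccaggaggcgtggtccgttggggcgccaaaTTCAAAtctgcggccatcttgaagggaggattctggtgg
Ccnb1 and Ccnb2, which encode the closely related cyclins B1 and B2, each had at least 2 CCAAT matches. Only Ccnb2 of the pair had the CHR letters that were searched. In Ccnb2, Cdk1, Cdc20, Ube2c, Top2a and Aspm both kinds of motif stood within the stretch shown. Kif15 had CHR letters but no CCAAT match.

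**Figure D1:**
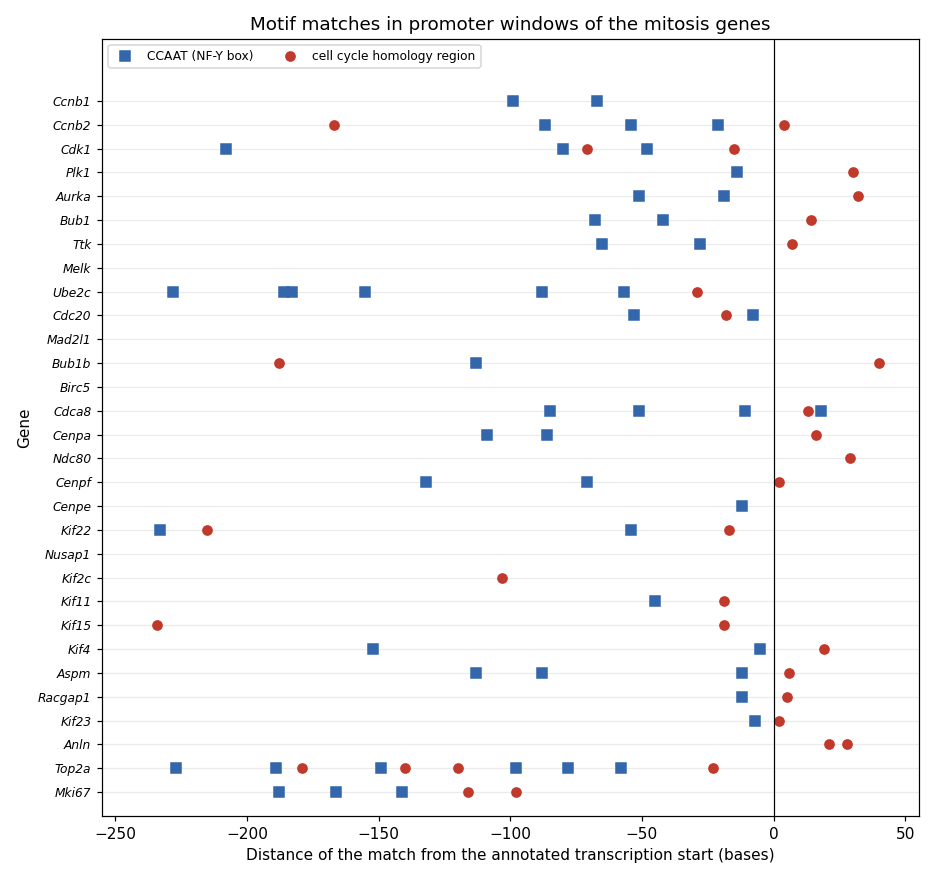
Positions of CHR matches and CCAAT matches in the promoter windows of the 30 members with a single window, in bases from the transcription start, 1 row per gene. CHR matches gather near the start, where 27 of the 40 matches over all 34 windows lie within 50 bases. These are counts per window, and the overlapping windows of Ect2 and of Prc1 hold the same letters.

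The 9 libraries summed to 394046 to 420058 FPKM, and 7.67% to 10.2% of this lay on mitochondrial genes, while 12764 to 13101 genes reached 1 FPKM. The oocyte markers Gdf9 and Zp3 and the granulosa markers Fshr, Amh and Foxl2 were present in every library. HBOT replicate 2 stood apart: Ereg and Areg, growth factors of the ovulatory response, were at 361 and 145 FPKM there, against at most 0.96 and 0.48 FPKM in the other libraries, and Pgr and Ptgs2 were at 49.1 and 41.3 FPKM. Over all tested genes its median deviation from the mean of the 9 libraries was -0.17 on the log2 scale, the lowest of any library, so the HBOT comparisons are also given without it for the 38 genes as a set, for the gene lists and for the genes whose fold changes are printed. Depth is unknown because no reads could be recovered from the FPKM.

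As a set the mitosis genes were at moderate levels that followed single libraries more than groups. Their summed level was 540, 583 and 451 FPKM in HBOT replicates 1 to 3, 722, 525 and 496 FPKM in CTX replicates 1 to 3, and 417, 407 and 690 FPKM in NC replicates 1 to 3. CTX replicate 1 and NC replicate 3 were the high libraries, NC replicates 1 and 2 the low ones, and the groups overlapped. The mean level over the 9 libraries ran from 3.73 FPKM for Cenpe, a kinetochore motor, to 44.1 FPKM for Ube2c, with a median of 13.3 FPKM. Each gene varied within a narrow range: its highest library was 1.59 times (Incenp) to 2.47 times (Cdk1) its lowest, with a median of 1.88 times. In bulk tissue fewer dividing cells and less RNA per dividing cell cannot be told apart.

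CTX replicate 1 held the highest value of 23 of the 38 genes and NC replicate 3 that of 12. HBOT replicate 2 was highest for Cdk1 and Ect2, and HBOT replicate 1 for Prc1. Over all tested genes CTX replicate 1 was highest for 20.2% and NC replicate 3 for 10.4%. These 2 libraries were the 2 highest of the 9 for 31 of the 38 genes, against 4.37% of all tested genes. The lowest value fell in NC replicate 2 for 20 genes and in NC replicate 1 for 10, and NC replicates 1 and 2 were the 2 lowest libraries for 19. Over all tested genes NC replicate 2 was lowest for 8.9% and NC replicate 1 for 10.5%. HBOT replicate 2 was lowest for 44.1% of all tested genes and for 1 of the 38.

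Within the NC group, replicate 3 exceeded both others for all 38 genes, and for 43.2% of all tested genes. The ratio of NC replicate 3 to the mean of NC replicates 1 and 2 ran from 1.31 for Aspm to 2.05 for Aurkb, with a median of 1.65, against a median of 1.02 over all tested genes. CTX replicate 1 likewise exceeded both others of its group for all 38, and for 47.2% of all tested genes. Its ratio to the mean of CTX replicates 2 and 3 ran from 1.18 for Prc1 to 1.61 for Ube2c, with a median of 1.42, against 1.05 over all tested genes. HBOT replicate 2 was less uniform. Its ratio to the mean of the other HBOT libraries ran from 0.74 for Ccnb2 to 1.75 for Cdk1, with 30 genes above 1 and 8 below, while the median over all tested genes was 0.84.

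**Figure D2:**
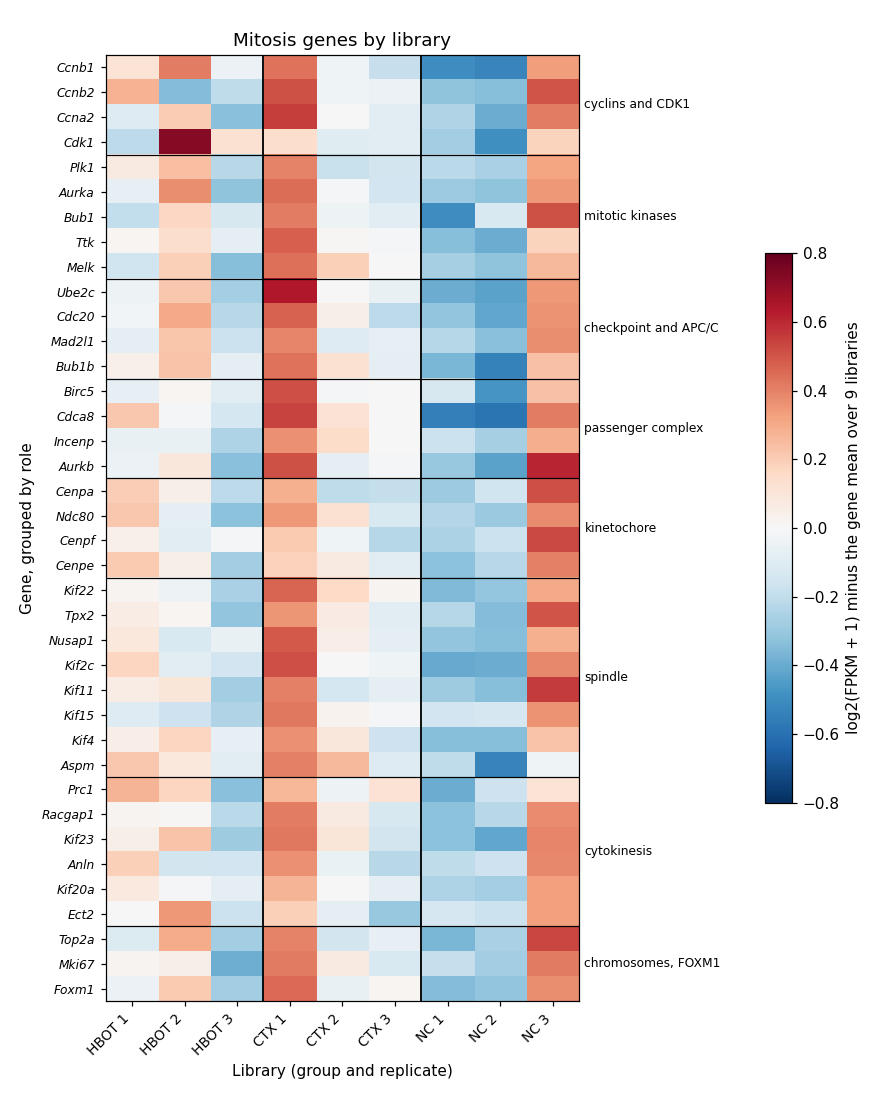
Deviation of log2(FPKM + 1) of each of the 38 genes (rows, ordered by role) from its own mean over the 9 libraries (columns, HBOT, CTX and NC). The columns of CTX replicate 1 and NC replicate 3 are above the mean in 38 and 37 genes, and those of NC replicates 1 and 2 in 0 genes.

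The spread within groups was therefore unequal. The median SD of log2(FPKM + 1) over the 38 genes was 0.21 within HBOT, 0.28 within CTX and 0.38 within NC, whereas over all tested genes it was 0.27, 0.16 and 0.13. Of the variance of a member over the 9 libraries, the part between the 3 group means had a median of 12.1%, from 0.96% for Cenpa to 50.2% for Aspm, against a median of 28.8% over all tested genes.

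Markers of other cell types were set beside this pattern for the same libraries. The 9 granulosa markers summed to 2317, 2328 and 1826 FPKM in HBOT replicates 1 to 3, 2538, 1520 and 2277 FPKM in CTX replicates 1 to 3, and 1473, 1417 and 2068 FPKM in NC replicates 1 to 3. CTX replicate 1 and NC replicate 3 were thus the highest of their groups in this sum too, although the median deviation of the 9 markers was 0.49 in CTX replicate 1 and -0.20 in NC replicate 3 on the log2 scale. The 8 luteal markers summed to 2682, 5380 and 6927 FPKM in HBOT replicates 1 to 3. They were at 2173, 3520 and 5624 FPKM in CTX replicates 1 to 3, and at 8322, 7542.5 and 6243 FPKM in NC replicates 1 to 3. CTX replicate 1 and NC replicate 3 were thus the lowest of their groups in the luteal sum. The median deviation of the luteal markers was -1.09 in CTX replicate 1 and 0.40 in NC replicate 3. The 5 stromal markers were at 713 FPKM in NC replicate 3 and 360 to 577 FPKM elsewhere. The 12 oocyte markers summed to 354 to 380 FPKM in the HBOT libraries, 250 to 368 FPKM in the CTX libraries and 164 to 224 FPKM in the NC libraries. The 9 markers of T and NK cells in the table summed to 6.32 FPKM in CTX replicate 1 and 2.40 FPKM in NC replicate 3, and were at 3.49 to 14.8 FPKM in the other 7 libraries. The part of these cell types in the levels of the mitosis genes was not tested.

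The cyclins and CDK1 start the sequence. Ccnb1, which encodes cyclin B1, had 20.6, 25.6 and 18.4 FPKM in the HBOT libraries, 26.1, 18.6 and 16.7 FPKM in the CTX libraries, and 13.2, 12.9 and 24.3 FPKM in the NC libraries. Cdk1, its kinase partner, had 11.1, 22.1 and 14.2 FPKM in the HBOT libraries, 14.4, 12.1 and 12.1 FPKM in the CTX libraries, and 10.5, 8.96 and 14.9 FPKM in the NC libraries. Ccnb1 peaked in CTX replicate 1, with HBOT replicate 2 and NC replicate 3 close to it, while Cdk1 was highest in HBOT replicate 2 by a wide margin, and for both genes every pair of groups overlapped. Ccna2, which encodes cyclin A2 of S phase and G2, averaged 17.6 FPKM over the 9 libraries.

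The cyclin B pair separated in HBOT replicate 2. This was noticed after the values had been seen and is given as a description. Ccnb2 had 22.3, 14.2 and 15.7 FPKM in the HBOT libraries, 26.4, 17.8 and 17.6 FPKM in the CTX libraries, and 14.4, 14.2 and 26.3 FPKM in the NC libraries. The ratio of Ccnb1 to Ccnb2 was 0.92, 1.81 and 1.17 in HBOT replicates 1 to 3, 0.99, 1.04 and 0.95 in CTX replicates 1 to 3, and 0.92, 0.91 and 0.92 in NC replicates 1 to 3. HBOT replicate 2 lies above the other 8 libraries, which span 0.91 to 1.17. Cdk1 over Ccnb2 was 1.56 in HBOT replicate 2 and 0.50 to 0.91 in the other 8 libraries. Ccnb2 was the only member at its lowest in HBOT replicate 2, which was the lowest library for 44.1% of all tested genes. There Ccnb2 stood at 0.74 times the mean of the other HBOT libraries, against a median of 0.84 over all tested genes. Ccnb1 stood at 1.31 times and Cdk1 at 1.75 times that mean.

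The mitotic kinases phosphorylate the proteins of the centrosome, spindle and kinetochore. Plk1, a kinase of mitotic entry, centrosome maturation and cytokinesis, had 16.3, 18.4 and 13.1 FPKM in the HBOT libraries, 20.6, 13.6 and 13.9 FPKM in the CTX libraries, and 13.2, 12.7 and 19.5 FPKM in the NC libraries. Ttk, which encodes the checkpoint kinase MPS1, had 6.02, 6.63 and 5.60 FPKM in the HBOT libraries, 8.65, 5.97 and 5.86 FPKM in the CTX libraries, and 4.48, 4.27 and 6.83 FPKM in the NC libraries. Both were highest in CTX replicate 1 and lowest in NC replicate 2. Aurka, the kinase of the spindle poles, averaged 12.02 FPKM over the 9 libraries, Bub1, a checkpoint kinase at kinetochores, 6.98 FPKM, and Melk, a kinase of dividing cells, 4.31 FPKM.

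The spindle checkpoint restrains the anaphase-promoting complex until chromosomes are attached. Ube2c, the E2 enzyme of that complex and the most abundant of the 38, had 41.7, 50.1 and 35.3 FPKM in the HBOT libraries, 67.3, 42.8 and 41.0 FPKM in the CTX libraries, and 32.4, 31.7 and 54.7 FPKM in the NC libraries. Bub1b, which encodes the checkpoint inhibitor BUBR1, had 15.3, 17.6 and 14.1 FPKM in the HBOT libraries, 20.5, 16.3 and 14.1 FPKM in the CTX libraries, and 11.3, 9.94 and 17.7 FPKM in the NC libraries. Both showed CTX replicate 1 on top and NC replicate 2 at the bottom. Cdc20, the activator that the checkpoint captures, and Mad2l1, which captures it, averaged 24.1 and 16.1 FPKM.

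The chromosomal passenger complex corrects wrong attachments and later marks the midzone. Birc5, which encodes survivin, had 24.1, 25.5 and 23.7 FPKM in the HBOT libraries, 36.5, 25.0 and 25.2 FPKM in the CTX libraries, and 22.9, 17.9 and 29.8 FPKM in the NC libraries. Incenp, the scaffold of the complex, had 17.1, 17.1 and 14.9 FPKM in the HBOT libraries, 23.3, 19.8 and 17.8 FPKM in the CTX libraries, and 15.7, 14.7 and 22.1 FPKM in the NC libraries. Birc5 was nearly flat across the HBOT libraries. Incenp was below every CTX library in each HBOT library, although the HBOT and NC libraries overlapped. Cdca8, which encodes borealin, and Aurkb, the kinase of the complex, averaged 19.3 and 16.3 FPKM.

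At the centromere, Cenpa encodes the histone H3 variant that marks it and had 30.8, 27.7 and 23.0 FPKM in the HBOT libraries, 32.9, 23.1 and 23.3 FPKM in the CTX libraries, and 21.7, 23.9 and 38.7 FPKM in the NC libraries. Ndc80, a subunit of the complex that holds microtubule ends, had 7.05, 5.57 and 4.52 FPKM in the HBOT libraries, 7.81, 6.53 and 5.39 FPKM in the CTX libraries, and 4.89, 4.63 and 8.01 FPKM in the NC libraries. NC replicate 3 was the highest library for both and for Cenpe and Cenpf, which averaged 3.73 and 4.13 FPKM. Centromere and kinetochore genes were thus the role in which NC replicate 3, not CTX replicate 1, led every gene.

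The spindle genes are motors and organisers of microtubules. Kif22, a chromokinesin that pushes chromosome arms outward, had 17.5, 16.7 and 14.2 FPKM in the HBOT libraries, 24.1, 19.3 and 17.5 FPKM in the CTX libraries, and 13.2, 13.7 and 21.5 FPKM in the NC libraries. Aspm, which focuses microtubules at spindle poles, had 7.11, 6.41 and 5.54 FPKM in the HBOT libraries, 8.25, 7.36 and 5.50 FPKM in the CTX libraries, and 5.06, 3.82 and 5.82 FPKM in the NC libraries. Kif15, a motor that helps keep the poles apart alongside KIF11, had 5.75, 5.46 and 5.12 FPKM in the HBOT libraries, 8.69, 6.39 and 6.15 FPKM in the CTX libraries, and 5.51, 5.59 and 8.28 FPKM in the NC libraries. Kif22, Aspm and Kif15 were all highest in CTX replicate 1. For Aspm NC replicate 2 was low and the CTX and NC groups overlapped only through CTX replicate 3 and NC replicate 3. For Kif15 every HBOT library was below every CTX library. The others were Kif11, the motor that pushes the poles apart, Kif2c, which takes microtubule ends apart, Kif4, a motor on chromosome arms, Nusap1, which bundles spindle microtubules, and Tpx2, which activates Aurora A. Their highest values lay between 8.05 FPKM for Kif4 and 18.9 FPKM for Tpx2.

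Cytokinesis follows at the central spindle. Prc1, which bundles antiparallel microtubules there, had 26.8, 24.9 and 17.2 FPKM in the HBOT libraries, 26.6, 21.3 and 23.9 FPKM in the CTX libraries, and 16.5, 19.5 and 23.8 FPKM in the NC libraries. Kif23, the motor of the centralspindlin complex, had 13.5, 15.4 and 10.5 FPKM in the HBOT libraries, 17.8, 14.0 and 11.7 FPKM in the CTX libraries, and 10.2, 9.52 and 17.4 FPKM in the NC libraries. Ect2, the exchange factor that activates RhoA for the contractile ring, had 4.79, 6.40 and 4.16 FPKM in the HBOT libraries, 5.64, 4.51 and 3.72 FPKM in the CTX libraries, and 4.30, 4.15 and 6.31 FPKM in the NC libraries. Prc1 peaked in HBOT replicate 1, Kif23 in CTX replicate 1 and Ect2 in HBOT replicate 2, so this role had no common leading library. Racgap1, the partner of KIF23 in centralspindlin, averaged 16.4 FPKM, Anln, the scaffold anillin of the contractile ring, 8.39 FPKM, and Kif20a, a motor of the central spindle, 7.47 FPKM.

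Of the chromosome and transcription genes, Top2a, the topoisomerase that untangles sister chromatids, had 29.5, 39.2 and 26.0 FPKM in the HBOT libraries, 42.2, 28.7 and 30.3 FPKM in the CTX libraries, and 24.5, 26.4 and 46.4 FPKM in the NC libraries. Mki67, the proliferation marker that coats mitotic chromosomes, had 11.1, 11.3 and 8.08 FPKM in the HBOT libraries, 14.9, 11.5 and 9.91 FPKM in the CTX libraries, and 9.47, 8.80 and 14.9 FPKM in the NC libraries. Both were highest in NC replicate 3, for Mki67 almost level with CTX replicate 1, and every pair of groups overlapped. Foxm1, the transcription factor that activates many of these genes, averaged 11.0 FPKM, from 8.27 FPKM in NC replicate 1 to 15.1 FPKM in CTX replicate 1.

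**Figure D3:**
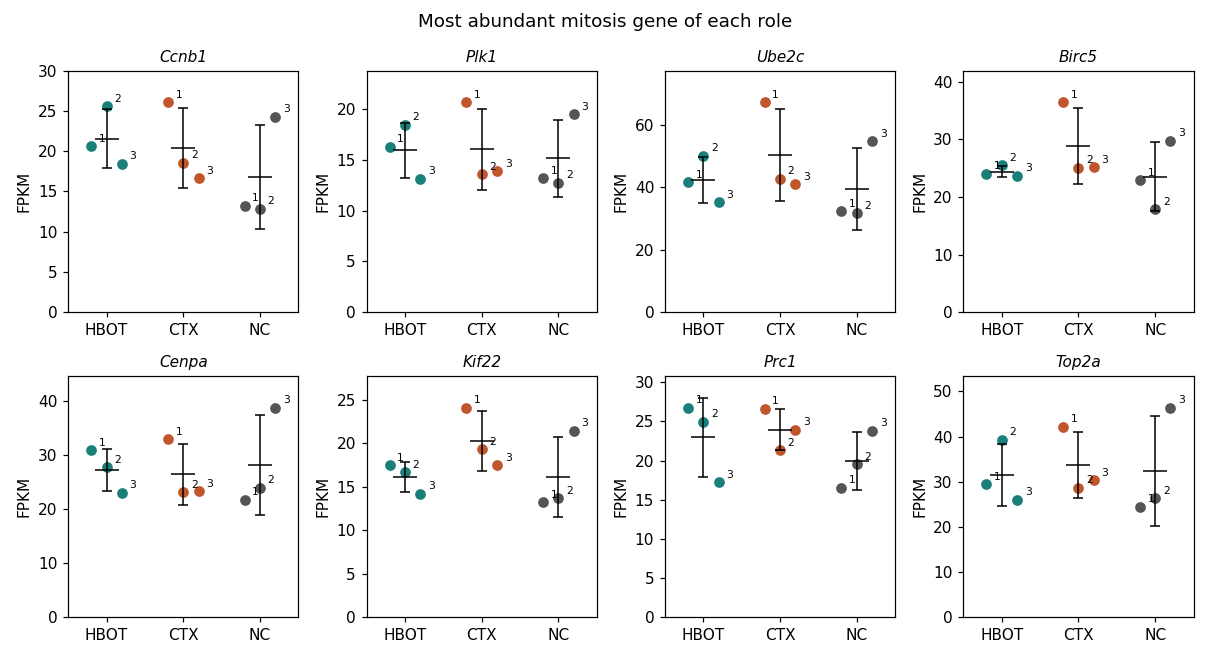
FPKM of the most abundant gene of each of the 8 roles in every library (points, numbered by replicate), with the mean (horizontal line) and SD (bars) of each group, for HBOT, CTX and NC. In all 8 panels CTX replicate 1 and NC replicate 3 stand above the other libraries of their groups, as for Ube2c with 67.3 FPKM in CTX replicate 1 and 54.7 FPKM in NC replicate 3.

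CTX against NC addresses the effect of the drug on these genes. In CTX ovaries 35 of the 38 genes had a higher mean than in NC ovaries, and Cenpa, Cenpf and Ect2 a lower one, but 0 of the 38 passed the test. Higher and lower means are counted here and below on log2(FPKM + 1), which can differ in direction from means of FPKM. The median log2 fold change of the 38, on the log2(FPKM + 1) scale used throughout, was 0.19, against 0.05 over all tested genes, of which 59.5% were higher. With scaling by median of ratios 34 of the 38 and 48.9% of all genes were higher. By role the median ran from 0.03 for centromere and kinetochore genes, 2 of 4 higher, to 0.29 for checkpoint and anaphase-promoting complex genes, 4 of 4 higher. All 8 spindle genes, all 5 kinases, all 4 cyclin and CDK1 genes, all 4 passenger genes and all 3 chromosome genes had a higher mean in CTX, as did 5 of 6 cytokinesis genes.

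Calls were made with limma at an adjusted p (Benjamini-Hochberg over all 13338 genes) under 0.05. In CTX against NC 0 genes (0%) were called, the smallest adjusted p being 0.17, and 1065 had an unadjusted p under 0.05. At that unadjusted level 5.24% of all genes were higher and 2.74% lower in CTX. Of the 38 members 1 was higher, Aspm, and 0 were lower. Its mean was 7.04 ± 1.41 FPKM in CTX libraries and 4.90 ± 1.01 FPKM in NC libraries (SD, n = 3 each), a log2 fold change of 0.45 with a standard error of 0.18 and an adjusted p of 0.61 by limma. Bub1b came next at 0.39 ± 0.22 (standard error), with an adjusted p of 0.73 by limma. Ect2 and Cenpa, the lower members with the smallest p, had log2 fold changes of -0.07 ± 0.21 and -0.06 ± 0.23, with adjusted p of 0.98 and 0.99. Both of these small values turned positive when NC replicate 3 was left out. In 0 of the 38 genes did the groups fail to overlap, against 13.2% of all genes with every CTX library higher and 7.8% with every one lower.

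NC replicate 3 and CTX replicate 1 moved this comparison. For 37 of the 38 genes the gap between NC replicate 3 and the mean of the other NC libraries was wider than the difference between the CTX and NC means, and NC replicate 3 exceeded CTX replicates 2 and 3 for 36. Without NC replicate 3 all 38 genes had a higher mean in CTX, with a median log2 fold change of 0.40 and 15 of them at an unadjusted p under 0.05, yet 0 called. Without CTX replicate 1 the median was 0.04, with 26 higher and 12 lower. Without both, an alternative chosen after these libraries had been seen, it was 0.29, with 37 higher and 0 called. Without NC replicate 1 or NC replicate 2 it was 0.09 and 0.08, and without CTX replicate 3 it was 0.29. Markers of other cell types were compared between the same groups, with 0 called by limma. Of the tested markers, 12 of 12 for oocytes, 7 of 9 for granulosa cells, 6 of 7 for macrophages, 5 of 5 for erythroid cells and 3 of 3 for neutrophils had a higher mean in CTX, as did 4 of 4 for theca cells, all 5 tested T and NK markers, 3 of 5 for smooth muscle and the 1 tested for B and plasma cells. A lower mean in CTX was found for 7 of 8 luteal markers, 5 of 5 for stroma, 4 of 5 for endothelium and 2 of 2 of the ovulatory response. Every CTX library lay above every NC library for 9 of 12 oocyte, 5 of 5 erythroid and 5 of 7 macrophage markers. The same held for 3 of 3 neutrophil and 3 of 5 tested T and NK markers, against 13.2% of all tested genes. Every CTX library lay below every NC library for 2 of 8 luteal, 2 of 5 stromal and 2 of 2 ovulatory markers, against 7.8%. The summed level was 387 to 817 FPKM in CTX libraries and 62.8 to 207 FPKM in NC libraries for the 6 listed erythroid markers, and 6.35 to 31.5 FPKM in CTX libraries and 0.88 to 1.93 FPKM in NC libraries for the 5 listed neutrophil markers. It was 121 to 163 FPKM in CTX libraries and 94.8 to 105 FPKM in NC libraries for macrophages, and 2173 to 5624 FPKM in CTX libraries and 6243 to 8322 FPKM in NC libraries for luteal cells. The stromal markers summed to 363 to 468 FPKM in CTX libraries and 469 to 713 FPKM in NC libraries, and the theca markers to 97.8 to 587 FPKM in CTX libraries and 80.2 to 163 FPKM in NC libraries. Their part in the values of the mitosis genes was not tested.

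**Figure D4:**
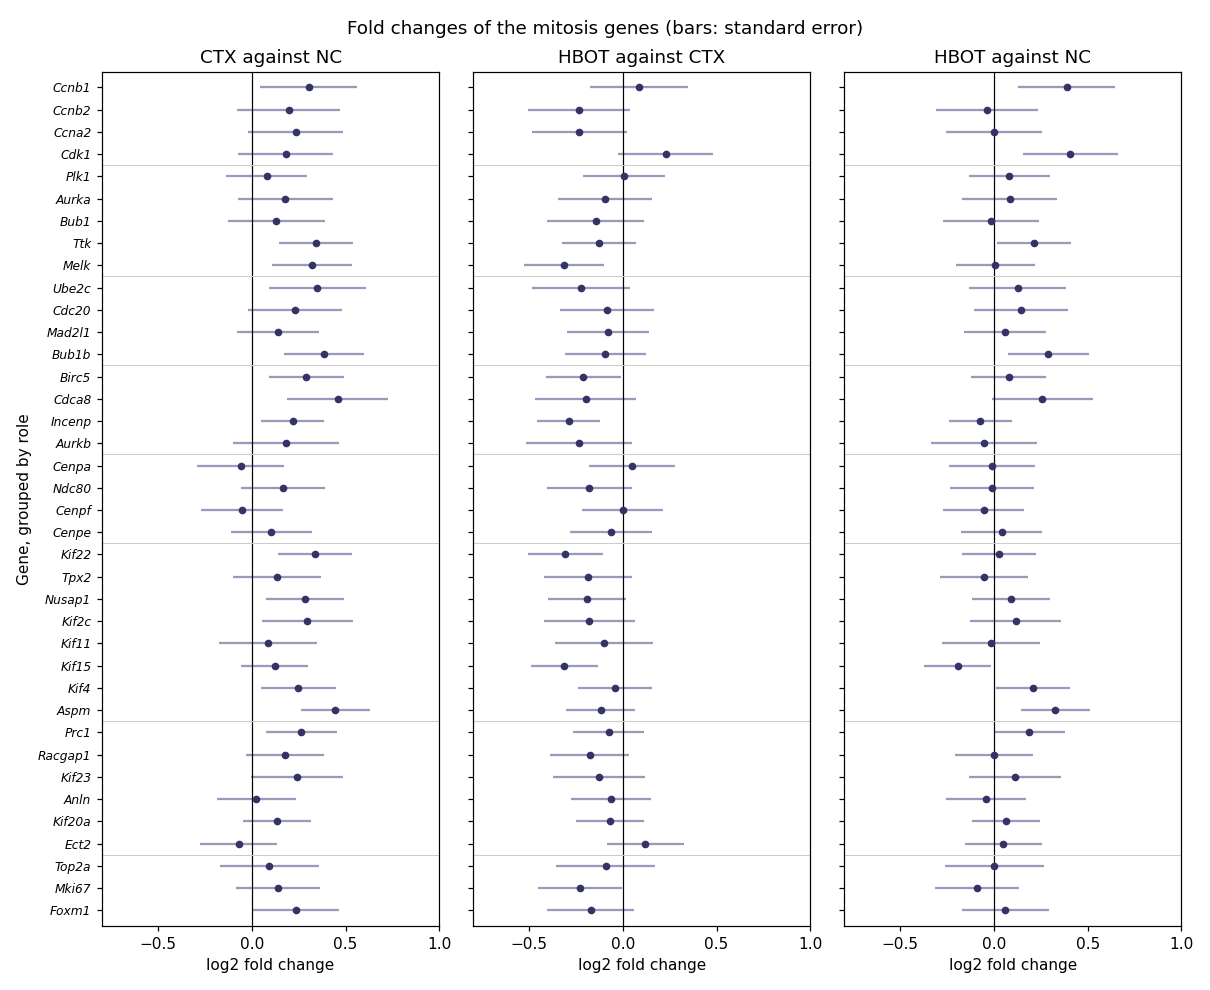
Log2 fold change on the log2(FPKM + 1) scale for each of the 38 genes in 3 panels, CTX against NC at the left, HBOT against CTX in the middle and HBOT against NC at the right, with standard errors from limma as bars. The members sit mostly above 0 in CTX against NC (median 0.19) and below 0 in HBOT against CTX (median -0.13), and 0 are called in each.

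HBOT against CTX addresses the effect of hyperbaric oxygen in animals that also had the drug. In HBOT ovaries 33 of the 38 genes had a lower mean than in CTX ovaries and 5 a higher one, and 0 passed the test. Plk1, counted among the 5, had a slightly lower mean in FPKM, at 15.93 in HBOT and 16.03 in CTX libraries. The median log2 fold change of the 38 was -0.13, against -0.07 over all tested genes, of which 38.4% were higher in HBOT. Scaling by median of ratios brought the median of all genes to -0.003 and that of the members to -0.06, with 31 lower. All 8 spindle genes and all 4 genes each of the passenger and checkpoint roles had a lower mean in HBOT, with medians of -0.18, -0.22 and -0.09. Of the cyclins and CDK1, 2 of 4 were lower.

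With limma 0 genes (0%) were called in HBOT against CTX, at a smallest adjusted p of 0.18, and 812 had an unadjusted p under 0.05. That level was reached by 2.41% of all genes higher and 3.67% lower in HBOT, and by 0 members. Kif15 and Incenp were the 2 members whose HBOT libraries all lay below the CTX libraries, which 6.44% of all genes did, while 0 members lay wholly above, against 3.76% of all genes. Kif15 averaged 5.44 ± 0.31 FPKM in HBOT libraries and 7.08 ± 1.40 FPKM in CTX libraries (SD, n = 3 each), a log2 fold change of -0.31 ± 0.18 (standard error) with an adjusted p of 0.71 by limma. Incenp averaged 16.4 ± 1.28 FPKM in HBOT libraries and 20.3 ± 2.80 FPKM in CTX libraries, a log2 fold change of -0.29 ± 0.17 with the same adjusted p of 0.71. Cdk1 and Ect2 were the higher members with the smallest p, at 0.23 ± 0.25 and 0.12 ± 0.21, with adjusted p of 0.76 and 0.84. Both turned negative without HBOT replicate 2, at -0.03 for Cdk1 and -0.03 for Ect2, while Kif15 and Incenp were then both at -0.32.

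CTX replicate 1 moved this comparison in turn. Without it 18 of the 38 genes were higher in HBOT and 20 lower, and the median stood at -1.81e-05. Without HBOT replicate 2 the median was -0.18, with 36 lower. Without HBOT replicate 3 it was -0.04, with 24 lower, and without CTX replicate 2 or CTX replicate 3 it was -0.20 and -0.24. The comparisons of HBOT with CTX and of CTX with NC share the CTX libraries, so their opposite directions are not independent of each other. Of the markers of other cell types 0 were called in HBOT against CTX. A higher mean in HBOT was found for 11 of 12 oocyte markers, 5 of 5 for stroma, 5 of 5 for smooth muscle, 3 of 3 for neutrophils, 5 of 7 for macrophages, 2 of 2 of the ovulatory response and the 1 tested for B and plasma cells. A lower mean was found for 5 of 5 erythroid markers, 3 of 4 for theca cells, 3 of 5 for endothelium and 3 of the 5 tested T and NK markers. Granulosa markers were split 4 higher and 5 lower, or 7 and 2 without HBOT replicate 2, and luteal markers 4 and 4, or 3 and 5 without it. Leaving out HBOT replicate 2 also turned the T and NK markers to 4 higher and 1 lower in HBOT. It gave 7 of 7 macrophage markers and 10 of 12 oocyte markers higher, and left the other marker counts as they were. The smooth muscle markers summed to 343 to 481 FPKM in HBOT libraries and 297 to 364 FPKM in CTX libraries, the stromal markers to 360 to 549 FPKM in HBOT libraries and 363 to 468 FPKM in CTX libraries, and the erythroid markers to 317 to 735 FPKM in HBOT libraries and 387 to 817 FPKM in CTX libraries. Their part in the values of the mitosis genes was not tested.

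HBOT against NC sets drug and oxygen together against neither. In HBOT ovaries 25 of the 38 genes had a higher mean and 13 a lower one, with a median log2 fold change of 0.05, against -0.01 over all tested genes, and 0 passed the test. Top2a, Ccna2 and Melk, counted among the 25, had a slightly lower mean in FPKM, as for Top2a with 31.58 in HBOT and 32.43 in NC libraries. With scaling to TPM 22 were higher (median 0.03), with quantile normalization 30 (median 0.07), and with library weights, which give less weight to libraries that deviate more, 34 (median 0.145). Of all tested genes 47.6% were higher in the main analysis, 43.8% with TPM and 50.3% with quantile normalization. With library weights 59.7% of all genes were higher (median 0.05). With limma 0 genes (0%) were called, at a smallest adjusted p of 0.235, and 1584 had an unadjusted p under 0.05, which is 6.22% of all genes higher and 5.65% lower in HBOT. Of the members 0 reached that level, and 0 had groups that did not overlap, against 10.9% of all genes higher and 9.6% lower. Aspm and Cdk1 were the higher members with the smallest p. Aspm averaged 6.35 ± 0.78 FPKM in HBOT libraries and 4.90 ± 1.01 FPKM in NC libraries (SD, n = 3 each), a log2 fold change of 0.33 ± 0.18 with an adjusted p of 0.50 by limma. Cdk1 averaged 15.8 ± 5.70 FPKM in HBOT libraries and 11.45 ± 3.06 FPKM in NC libraries, a log2 fold change of 0.41 ± 0.25 with an adjusted p of 0.52. Without HBOT replicate 2 the value was 0.15 for Cdk1 and 0.32 for Aspm. Kif15 and Incenp were the lower members with the smallest p, at -0.19 ± 0.18 and -0.07 ± 0.17, with adjusted p of 0.65 and 0.86, and without HBOT replicate 2 they were at -0.195 and -0.10.

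The direction of the HBOT and NC comparison changed when single libraries were left out. Without NC replicate 3 the median of the 38 genes was 0.27, with 37 higher and 3 at an unadjusted p under 0.05, and 0 called. It was -0.05 without NC replicate 1 and without NC replicate 2, and -0.003 without HBOT replicate 2, with 18 higher and 20 lower. Without HBOT replicate 3 it was 0.13. NC replicate 3 exceeded all 3 HBOT libraries for 32 of the 38 genes. The comparisons of HBOT and of CTX with NC share the NC libraries, and with them NC replicate 3. Of the markers of other cell types 0 were called in HBOT against NC. A higher mean in HBOT was found for 11 of 12 oocyte markers, and the same number had every HBOT library above every NC library, against 10.9% of all tested genes. It was also found for 6 of 9 granulosa markers, 7 of 7 for macrophages, 5 of 5 for erythroid cells, 3 of 3 for neutrophils, 5 of 5 for smooth muscle, 3 of 4 for theca cells, all 5 tested T and NK markers, 1 of 2 of the ovulatory response and the 1 tested for B and plasma cells. A lower mean was found for 8 of 8 luteal markers, 4 of 5 for stroma and 4 of 5 for endothelium. When HBOT replicate 2 was left out, 12 of 12 oocyte markers, 8 of 9 granulosa markers and 3 of 5 for smooth muscle were higher. Theca markers were then 4 of 4 higher and endothelial markers 3 of 5 lower, and the other marker counts were unchanged. The neutrophil markers summed to 11.96 to 33.9 FPKM in HBOT libraries and 0.88 to 1.93 FPKM in NC libraries, the erythroid markers to 317 to 735 FPKM in HBOT libraries and 62.8 to 207 FPKM in NC libraries, and the luteal markers to 2682 to 6927 FPKM in HBOT libraries and 6243 to 8322 FPKM in NC libraries. Their part in the values of the mitosis genes was not tested.

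Aspm showed the widest part of its variance between groups (50.2%), and its values lie side by side in both comparisons with NC: 0.33 for HBOT and 0.45 for CTX on the log2 scale. Its lowest library was NC replicate 2 at 3.82 FPKM, and its NC replicate 3 was at 5.82 FPKM, the smallest excess of that library among the 38 genes.

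Other genes of mitosis showed the same libraries on top. Of 54 further genes of mitosis and chromosome segregation, all tested, 50 were higher in CTX than in NC (median log2 fold change 0.16), 43 were lower in HBOT than in CTX (median -0.07) and 40 were higher in HBOT than in NC (median 0.09), with 0 called in each. With scaling by median of ratios 29 of the 54 were lower in HBOT than in CTX. Without HBOT replicate 2, 47 were lower in HBOT than in CTX (median -0.17) and 33 higher in HBOT than in NC (median 0.03). Without CTX replicate 1, 34 were higher in CTX than in NC (median 0.05) and 19 lower in HBOT than in CTX (median 0.06). CTX replicate 1 was the highest library for 29 of the 54 and NC replicate 3 for 16. Haspin, a kinase of centromeric histone H3, was at 2.56, 3.21 and 3.02 FPKM in the HBOT libraries, 3.16, 3.30 and 1.83 FPKM in the CTX libraries, and 1.47, 1.73 and 2.31 FPKM in the NC libraries. Cdca5, which encodes the cohesin protector sororin, was at 9.29, 11.1 and 9.65 FPKM in the HBOT libraries, 12.6, 9.54 and 8.02 FPKM in the CTX libraries, and 5.73, 5.87 and 9.15 FPKM in the NC libraries. Both had every HBOT library above every NC library, as did only these 2 of the 54, against 10.9% of all tested genes. Haspin and Cdca5 had log2 fold changes of 0.48 ± 0.20 and 0.50 ± 0.21, with adjusted p of 0.41 and 0.40 by limma. Their log2 fold changes were both 0.43 when HBOT replicate 2 was left out. All 8 condensin genes, whose products compact chromosomes, had a higher mean in CTX than in NC (median 0.15). In HBOT 7 of the 8 had a lower mean than in CTX (median -0.08). That count became 5 of 8 with scaling by median of ratios and 8 of 8 without HBOT replicate 2 (median -0.12). Without CTX replicate 1, 6 of the 8 were higher in CTX than in NC (median 0.04). In HBOT against CTX 5 were then higher and 3 lower (median 0.05).

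Genes that act before mitosis were measured in the same libraries. The 22 DNA replication genes summed to 343, 575 and 345 FPKM in HBOT replicates 1 to 3, 513, 369 and 353 FPKM in CTX replicates 1 to 3, and 299, 318 and 408 FPKM in NC replicates 1 to 3. HBOT replicate 2 and CTX replicate 1 were the high libraries, and NC replicate 3 came after them. Their median deviation in NC replicate 3 was 0.08 on the log2 scale, against 0.37 for the 38 mitosis genes. All 22 had a higher mean in CTX than in NC (median 0.29) and 20 of 22 in HBOT than in NC (median 0.25), while HBOT against CTX split into 9 higher and 13 lower (median -0.02), or 14 higher and 8 lower with scaling by median of ratios, and 0 were called. HBOT replicate 2 moved these counts. Without it 16 of 22 were higher in HBOT than in NC (median 0.07), and HBOT against CTX had 1 higher and 21 lower (median -0.22). Without CTX replicate 1, 18 of 22 were higher in CTX than in NC (median 0.07) and 20 of 22 higher in HBOT than in CTX (median 0.16). Gins2, a subunit of the replicative helicase, was at 6.85, 6.51 and 6.86 FPKM in the HBOT libraries, 6.25, 4.81 and 6.13 FPKM in the CTX libraries, and 3.03, 5.23 and 4.94 FPKM in the NC libraries. Tyms, which encodes thymidylate synthase, was at 7.76, 9.60 and 7.80 FPKM in the HBOT libraries, 11.1, 9.81 and 9.15 FPKM in the CTX libraries, and 6.10, 7.02 and 9.49 FPKM in the NC libraries. Gins2 had a log2 fold change of 0.55 ± 0.18 in HBOT against NC, with an adjusted p of 0.35 by limma, and its log2 fold change was 0.57 when HBOT replicate 2 was left out. Of 14 genes of G1 and the G1/S transition, 11 were higher in HBOT than in NC (median 0.21) and 11 in CTX than in NC (median 0.20), and HBOT against CTX was split 7 and 7 (median -0.02). With HBOT replicate 2 left out, 10 were higher in HBOT than in NC (median 0.09) and 13 lower in HBOT than in CTX (median -0.09). Without CTX replicate 1, HBOT against CTX had 10 higher and 4 lower (median 0.13). Scaling by median of ratios also gave 10 higher and 4 lower there (median 0.04). Among them Ccne1, which encodes cyclin E1, had 2.78, 6.85 and 4.40 FPKM in the HBOT libraries, 5.24, 4.84 and 4.52 FPKM in the CTX libraries, and 1.89, 2.73 and 3.11 FPKM in the NC libraries. Every CTX library was above every NC library, as for 13.2% of all tested genes. The log2 fold change in CTX against NC was 0.73 ± 0.26 with an adjusted p of 0.51 by limma.

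The regulators of the mitosis genes were counted in the same way. Of 17 genes of MuvB, DREAM and their partners 16 were higher in CTX than in NC (median 0.17), 12 were higher in HBOT than in NC (median 0.10), and HBOT against CTX was split 8 higher and 9 lower, or 10 higher and 7 lower with scaling by median of ratios. Without HBOT replicate 2, 13 were higher in HBOT than in NC (median 0.10), and HBOT against CTX had 4 higher and 13 lower (median -0.07). Nfya, a subunit of NF-Y, had 23.1, 29.5 and 25.2 FPKM in the HBOT libraries, 26.5, 20.7 and 23.9 FPKM in the CTX libraries, and 20.3, 18.0 and 17.9 FPKM in the NC libraries. Its values in HBOT and in CTX lay above those in NC without overlap, at log2 fold changes of 0.44 ± 0.13 and 0.32 ± 0.13 and adjusted p of 0.32 and 0.61 by limma. Of all tested genes 10.9% lay above NC without overlap in HBOT and 13.2% in CTX. E2f5, a repressor E2F that acts with p130, had a log2 fold change of 0.41 ± 0.12 in HBOT against NC, with an adjusted p of 0.32. In HBOT against NC, leaving out HBOT replicate 2 gave 0.35 for Nfya and 0.36 for E2f5. The 17 genes of the anaphase-promoting complex stood at 12 higher and 5 lower in CTX against NC (median 0.09), 4 higher and 13 lower in HBOT against CTX (median -0.09), or 7 and 10 with scaling by median of ratios, and 7 higher and 10 lower in HBOT against NC (median -0.03). Leaving out HBOT replicate 2 gave 7 higher and 10 lower in HBOT against CTX (median -0.05), and 11 higher and 6 lower in HBOT against NC (median 0.04). Of the 4 brakes on mitotic entry, 3 were higher in CTX than in NC, 3 were lower in HBOT than in CTX and 3 were higher in HBOT than in NC. With that library left out, 4 were lower in HBOT than in CTX and 2 higher in HBOT than in NC. Without CTX replicate 1, HBOT against CTX had 2 higher and 2 lower. Wee1, which holds CDK1 inactive, was at 6.02, 10.1 and 6.20 FPKM in the HBOT libraries, 8.43, 6.81 and 5.87 FPKM in the CTX libraries, and 4.81, 5.06 and 6.26 FPKM in the NC libraries. Chek2, a kinase of the DNA damage checkpoint, was at 4.63, 2.12 and 5.23 FPKM in the HBOT libraries, 6.29, 5.22 and 4.97 FPKM in the CTX libraries, and 5.97, 4.68 and 6.36 FPKM in the NC libraries. For Chek2 HBOT replicate 2 was far below the other 8 libraries, and 0 genes of these lists were called in the 3 comparisons.

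**Figure D5:**
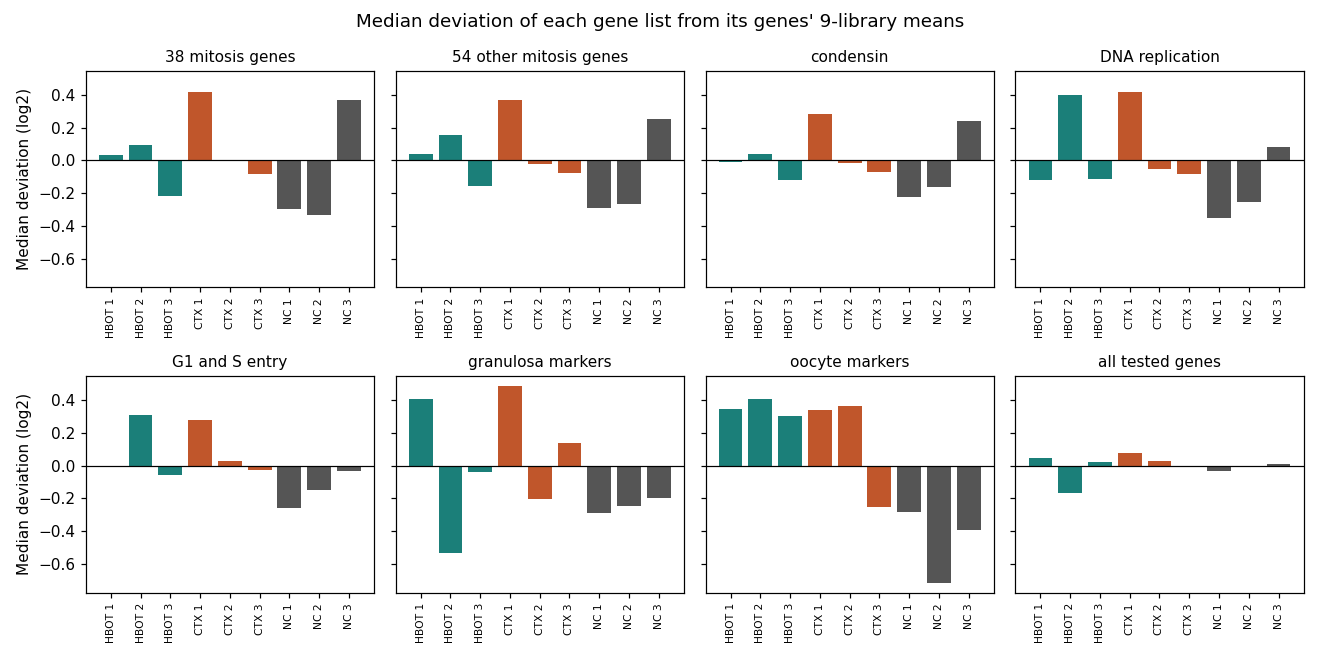
Median deviation of log2(FPKM + 1) from the gene means in each library for the 38 mitosis genes and further gene lists, with HBOT, CTX and NC libraries in order. NC replicate 3 stands at 0.37 for the mitosis genes and 0.08 for the DNA replication genes, and CTX replicate 1 at 0.42 for both.

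The CHR letters can be set beside how far each gene followed the high libraries. The 26 genes with CHR letters had a median ratio of NC replicate 3 to the other NC libraries of 1.65, with a range of 1.31 to 2.04, and the 6 genes with a window but without CHR letters a median of 1.62, with a range of 1.46 to 1.86. For CTX replicate 1 the medians were 1.40 and 1.43. Ccnb1, without CHR letters, and Ccnb2, with them, had ratios of 1.86 and 1.84 in NC replicate 3. These are descriptions with no test, and genes without the letters may hold a form of the CHR that was not searched.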

How the data were processed

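Ovary RNA of 9 mouse libraries was measured, 3 each in the HBOT, CTX and NC groups. Per the labels' protocols, TRIzol was used for extraction, oligo(dT) beads for selecting mRNA and the VAHTS mRNA-seq v3 kit for libraries, which were sequenced from both ends. Per the submitters' processing notes, fastp 0.23.4 and GRCm39 were used. Aligner, counting program and annotation: not given in the sources used here. A single table of FPKM was deposited (22544 entries, 747 of them assembled loci). FPKM corrects for transcript length and total reads but keeps no depth, and the ratios of low values did not give back reads, so only the spread between libraries shows how precise a value is. RNA taken up by a few abundant genes of a library lowers all its other values.

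Values were taken as log2(FPKM + 1) and a gene was kept when 3 or more of the 9 libraries had 1 FPKM or more. Limma 3.58.1 in R 4.3.3 fitted the 3 groups together (eBayes with trend, 6 residual degrees of freedom), with Benjamini-Hochberg adjustment over the 13338 genes of a contrast and calls at an adjusted p under 0.05. Errors are SD over 3 libraries or limma standard errors. The fit was tested on simulated data with 100 genes changed by each size. For CTX against NC it found 62% of the genes changed by 1 on the log2 scale and 90% of those changed by 2, with 11 false calls among 13138 other genes. For HBOT against CTX these were 52%, 92% and 14, and for HBOT against NC 63%, 78% and 8. The noise was drawn for each gene separately, without shifts that genes of a library share, and no change below 1 was simulated. The largest change of a member was 0.46, in CTX against NC, so these rates do not give the sensitivity for the members. Same-numbered libraries of different groups had deviations that correlated from -0.287 to 0.156, so the numbers were not taken to pair them.

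The 38 genes, their roles and the other gene lists were chosen with earlier results of these data known. Values per library are given for the most abundant gene of each role, the gene of each role with the smallest p besides it, and, for each direction of a contrast, the 2 genes of smallest p. Of other genes, the 2 with the smallest p of each pathway list and a few ovarian markers are named. Promoter windows are RefSeq's on GRCm38.p6, which is not the build of the FPKM table, and were matched by symbol. The alternatives were pseudocount, filter, 3 scalings (TPM, median of ratios, quantiles), the 2 groups alone, the replicate block, eBayes without trend, library weights and each library left out. Leaving out single libraries for the other gene lists and genes was added after the data had been seen. Python 3.11.15 with pandas 2.3.3, numpy 2.4.6 and matplotlib 3.10.9 was used for summaries and figures.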

Additional observations from a re-analysis of the deposited data

How the results depend on the processing

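Of 420 values recomputed under the alternatives, 388 counted as kept. For a single gene this meant the same direction and side of the threshold, and for a number of called genes no change. For a median of the members it meant the same direction and a shift of at most 0.29. That limit exceeds the size of the main medians, 0.188, -0.129 and 0.0549. Fold changes could not alter when a library of the group not compared was left out. Of the other values 14 changed direction and 18 were numbers of called genes that rose. The number of the 38 genes called was 0 in every comparison and alternative tried. Over all genes, the count called in CTX against NC was 0 in the main analysis, 31 with the 2 groups alone, 123 with library weights and 1 without both CTX replicate 1 and NC replicate 3. In HBOT against CTX it was 1 with no filter, 5 with library weights and 16 without both of those libraries. In HBOT against NC it was 1 with no filter, 181 with library weights and 22 without both. With each library left out in turn these counts ranged from 0 to 9, from 0 to 1 and from 0 to 3. The cause was not tested. With the replicate block 0 genes were called in each comparison, and 4 of 9 libraries correlated best with their own number in another group. A block on the replicate number changed no call among the members.

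Leaving out single libraries moved the median log2 fold change of the members between -0.0538 and 0.269 in HBOT against NC, which changed its direction, between 0.0416 and 0.401 in CTX against NC, and between -0.239 and -1.81e-05 in HBOT against CTX. Directions of single genes also turned. The range was -0.221 to 0.188 for Cenpa and -0.196 to 0.0915 for Ect2 in CTX against NC. In HBOT against CTX it was -0.0293 to 0.44 for Cdk1 and -0.0256 to 0.246 for Ect2, and in HBOT against NC -0.18 to 0.0977 for Incenp. Cdk1 was at -0.0156 in HBOT against CTX with library weights. Without both CTX replicate 1 and NC replicate 3, Cenpa was at 0.0265 in CTX against NC and Incenp at 0.0977 in HBOT against NC. The cause was not tested. With 3 libraries a group and unknown depth, differences of this size could not be told from the spread between libraries.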

Other observations

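Cenpm, which encodes a subunit of the centromere-associated network and is no member of the 38, stood out after the values had been seen. It was at 9.68, 149 and 10.2 FPKM in the HBOT libraries, 14.7, 9.01 and 13.0 FPKM in the CTX libraries, and 7.86, 7.47 and 12.1 FPKM in the NC libraries. HBOT replicate 2, the library with high Ereg and Areg, was far above the other 8, while its values for the members Cenpa, Cenpe and Cenpf were 27.7, 3.82 and 3.77 FPKM, within the range of the other libraries.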
